A study of Rattus norvegicus with 6 samples.

Results

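The hypoxia-inducible factors are the transcription factors through which animal cells answer a fall in oxygen, and 10 genes that encode them and their direct regulators are described here. The members were taken by gene symbol: the alpha subunits Hif1a, Epas1 and Hif3a, the partner subunits Arnt and Arnt2, the prolyl hydroxylases Egln1, Egln2 and Egln3, the ubiquitin ligase subunit Vhl and the asparagine hydroxylase Hif1an. All 10 had a probe set assigned to them alone, among 14506 genes that had one. RNA came from neurospheres, floating clusters grown for 10 days from dispersed cells of adult rat carotid body, the organ that senses arterial oxygen. Of the 6 arrays, 3 are labelled undifferentiated, for spheres kept in neural crest medium with FGF, IGF-1, EGF and ET-1 in normoxia. The other 3 are labelled differentiated, for spheres kept in that medium without mitogens at 3% oxygen. Withdrawal of mitogens and low oxygen therefore came together, and their parts in any difference cannot be told apart. The sources used here do not give strain, genotype, exact age or any pooling of animals. They also do not say whether arrays with the same label hold separate cultures or animals, so each p-value reflects the spread among these arrays alone, which may be technical.

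An alpha subunit binds an Arnt subunit, and the pair occupies DNA at hypoxia response elements. In the presence of oxygen the Egln enzymes hydroxylate prolines of the alpha subunit, Vhl then marks it for degradation, and Hif1an hydroxylates an asparagine, which blocks the binding of coactivators. Oxygen acts mainly on alpha subunit protein, which arrays do not measure. In the adult carotid body, Epas1 is known for its high expression in glomus cells, the oxygen-sensing cells that make catecholamines.

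The label check bears on every direction below. Tyrosine hydroxylase (Th), the glomus cell enzyme that starts catecholamine synthesis, read 13.76, 13.59 and 13.91 in the arrays labelled undifferentiated and 10.73, 11.32 and 10.65 in those labelled differentiated. A transcript of the neuron-like glomus cells was thus lower in the group that the study describes as richer in neuronal cells, so each group is called by its label, and a difference always means labelled differentiated minus labelled undifferentiated. If the labels were exchanged in the deposit, every direction given here would turn, and this was not tested. All 13 measured glomus cell markers fell, with a median of -2.43, and their summed linear signal ran from 32437 to 36686 in the arrays labelled undifferentiated and from 4358 to 6381 in the others. All 10 mesenchymal and fibroblast markers rose (median 1.10), from sums of 13339 to 17868 to sums of 32326 to 33361. Endothelial sums overlapped at 808 to 972 and 924 to 1108 (2 of 9 markers rose, 1 fell). Glial sums also overlapped, at 1129 to 1462 and 995 to 1763 (2 of 7 rose, 0 fell) and macrophage sums at 1512 to 2220 and 1995 to 3604 (2 of 10 rose, 2 fell). Smooth muscle sums were 5938 to 6582 and then 2685 to 3223, with 2 of 6 markers higher and 1, Rgs5, lower. Rgs5 was the brightest of them in the arrays labelled undifferentiated (mean 12.42, then 10.14), so the fall of the sum is that of Rgs5. Acta2 and Tagln rose by 0.97 and 1.45. Values are those deposited, on a log2 scale, where array medians lay between 5.05 and 5.13.

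The promoters of 4 members are shown because their transcripts moved in both directions and a match to the core of the hypoxia response element, which these factors bind, can be read in them directly. Each window covers 250 bases before and 50 after the gene's start, from RefSeq on GRCr8, written 5′ to 3′ along the gene. Capitals mark ACGTG or GCGTG, or their reverse complements.

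Hif1a, chr6:98359648-98359947, plus strand: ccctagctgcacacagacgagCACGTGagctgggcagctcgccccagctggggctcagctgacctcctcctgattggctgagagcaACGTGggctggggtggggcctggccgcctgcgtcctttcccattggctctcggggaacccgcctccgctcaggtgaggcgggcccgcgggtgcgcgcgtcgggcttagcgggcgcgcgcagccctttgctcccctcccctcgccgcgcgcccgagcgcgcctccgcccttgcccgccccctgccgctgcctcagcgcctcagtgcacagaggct
Epas1, chr6:13624680-13624979, minus strand: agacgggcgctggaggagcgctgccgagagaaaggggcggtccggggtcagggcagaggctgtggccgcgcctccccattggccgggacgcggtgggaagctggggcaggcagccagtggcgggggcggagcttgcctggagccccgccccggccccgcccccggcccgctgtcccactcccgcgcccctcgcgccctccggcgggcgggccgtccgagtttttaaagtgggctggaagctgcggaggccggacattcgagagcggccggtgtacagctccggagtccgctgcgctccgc
Egln1, chr19:69804632-69804931, minus strand: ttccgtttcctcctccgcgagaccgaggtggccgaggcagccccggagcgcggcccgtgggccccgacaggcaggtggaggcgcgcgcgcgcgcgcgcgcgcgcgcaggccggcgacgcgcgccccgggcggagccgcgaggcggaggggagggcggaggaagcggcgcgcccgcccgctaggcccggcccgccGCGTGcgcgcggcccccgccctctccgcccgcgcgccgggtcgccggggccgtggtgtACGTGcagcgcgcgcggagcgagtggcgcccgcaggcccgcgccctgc
Egln3, chr6:77410966-77411265, minus strand: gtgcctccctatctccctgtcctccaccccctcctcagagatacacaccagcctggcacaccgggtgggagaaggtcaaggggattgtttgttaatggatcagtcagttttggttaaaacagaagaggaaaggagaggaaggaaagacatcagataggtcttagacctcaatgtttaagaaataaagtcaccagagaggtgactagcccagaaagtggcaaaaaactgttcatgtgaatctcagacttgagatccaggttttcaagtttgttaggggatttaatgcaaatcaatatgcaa

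The Hif1a window held 3 matches, of which a pair overlap in the palindrome CACGTG, where the core reads on both strands. In the Egln1 window GCGTG began 56 bases before the start and ACGTG 2 bases after it. The Epas1 and Egln3 windows held neither core, and their GC content was 75.7% and 44.7%, beside a median of 51.7% over all windows. The Egln3 window may belong to a transcript start other than the main one, so its lack of a core describes this window alone. Over the 11 windows listed for the 10 members, 4 held a core, and 41.6% of all 33469 windows did (19.3% ACGTG, 29.7% GCGTG, on either strand). The members' share is close to that of all windows, which were not matched to the members for GC content. Except for Egln3, the members' windows held 57.3% to 84.7% GC, above the median over all windows, and both cores contain CG. A match of 5 letters describes the window and shows no binding.

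Of the 10 members, 1 rose and 5 fell at a limma adjusted p under 0.05, the threshold used throughout, and 4 did not pass. Over all genes 29.5% were called, 14.7% higher and 14.9% lower. The values of the groups did not overlap in 7 members, as in 42.3% of all genes. The median difference of the members was -0.24, against 0.06 over all genes. Because carotid body spheres are mixtures, fewer cells of a type and less RNA per cell cannot be told apart in any of these differences.

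**Figure D1:**
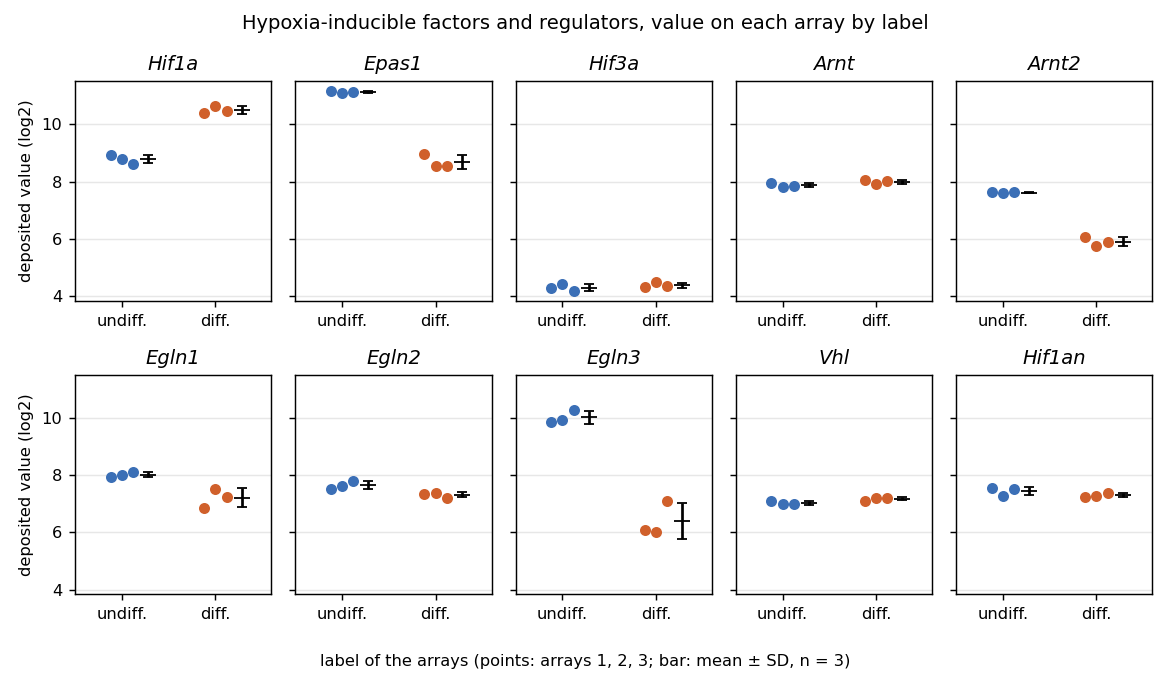
Deposited log2 value (vertical axis) of each of the 10 genes on the 3 arrays labelled undifferentiated (blue) and the 3 labelled differentiated (orange), with the mean and SD (n = 3) beside the points. Hif1a is higher, and Epas1, Arnt2, Egln1, Egln2 and Egln3 are lower, in all 3 arrays labelled differentiated. Vhl is also higher in all 3 but did not pass the threshold, whereas Hif3a, Arnt and Hif1an overlap.

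The best known alpha subunits moved in opposite directions. Hif1a, the widely expressed alpha subunit that drives glycolytic genes, read 8.91, 8.80 and 8.62 in the arrays labelled undifferentiated and 10.40, 10.64 and 10.46 in those labelled differentiated. All values of the second group lay above the first, and the rise was 1.72 ± 0.11 (SE), a 3.29-fold difference (95% interval on the log2 scale 1.48 to 1.96, limma adjusted p = 6.96e-07). Epas1 read 11.16, 11.11 and 11.14 in the arrays labelled undifferentiated, with an SD of 0.03, and 8.98, 8.53 and 8.56 in the others. It fell by 2.45 ± 0.13 (SE), a 5.45-fold difference (interval -2.72 to -2.17, limma adjusted p = 1.55e-07), and the highest value labelled differentiated was that of array 1. Of 14506 genes, 68 (0.469%) rose at least as far as Hif1a and 109 (0.751%) fell at least as far as Epas1.

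The change of Hif1a exceeded that of Epas1 by 4.16 log2 units. Within each array the difference Hif1a minus Epas1 was -2.25, -2.30 and -2.51 in the arrays labelled undifferentiated and 1.42, 2.11 and 1.90 in the others, so its sign separated the groups on all 6 arrays, although a difference between probe sets does not say which gene had more transcript. The two-sided exact permutation p was 0.1, the smallest that 3 arrays against 3 allow, and it was also 0.1 after adjustment over the 4 pairs of members compared. All 4 pairs stood at this smallest value, so the adjustment could not change it and adds no support. Hif3a, an alpha subunit that can act as an inhibitor of the others, read 4.28, 4.43 and 4.19 and then 4.31, 4.48 and 4.35, below the median of every array. Its groups overlapped, and the difference of 0.08 (interval -0.22 to 0.39, limma adjusted p = 0.714) did not pass.

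Of the partner subunits, Arnt2 fell and Arnt did not pass. Arnt2, the partner known mainly from neural tissue, read 7.62, 7.59 and 7.64 in the arrays labelled undifferentiated and 6.07, 5.75 and 5.90 in those labelled differentiated. The groups were separate, and the fall of 1.71 ± 0.11 (SE), or 3.28-fold, had a limma adjusted p of 7.63e-07. Another probe set, assigned to both Abhd17c and Arnt2 and therefore outside the fit, read 6.09, 6.11 and 6.10 and then 6.15, 5.76 and 6.29, a difference of -0.03 with overlapping groups, so the fall rests on the probe set of Arnt2 alone. Arnt, the partner present in most cells, read 7.95, 7.82 and 7.85 and then 8.06, 7.91 and 8.01, a difference of 0.12 (interval -0.09 to 0.33, adjusted p = 0.398). The change of Arnt exceeded that of Arnt2 by 1.83, with within-array differences of 0.22 to 0.33 and 1.99 to 2.17 in the groups (exact permutation p = 0.1, a pair chosen after the values were seen).

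The prolyl hydroxylases all fell, by very different amounts. Egln3, the prolyl hydroxylase whose own gene is a target of the factors, read 9.84, 9.92 and 10.27 in the arrays labelled undifferentiated and 6.07, 6.01 and 7.11 in those labelled differentiated. It fell by 3.62 ± 0.25 (SE), a 12.3-fold difference (interval -4.16 to -3.07, limma adjusted p = 1.1e-06). This was the largest difference among the 10 members, and 21 genes in all (0.145%) fell at least as far. Array 3 labelled differentiated stood above the other 2 of its group, whose SD was 0.62, and yet lay far under every array labelled undifferentiated. Without each array in turn the difference ran from -3.42 to -3.97.

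Egln1, the main oxygen sensor among the prolyl hydroxylases, had 2 probe sets. The brighter read 7.93, 8.00 and 8.12 and then 6.85, 7.52 and 7.24, and the other read 7.11, 7.45 and 7.59 and then 5.98, 6.75 and 6.35. In both, the groups were separate and the arrays labelled differentiated ranked alike, with array 1 lowest and array 2 highest. The brighter fell by 0.81 ± 0.15 (SE, limma adjusted p = 0.00176) and the other fell by 1.03. A test without moderation of the variance gave an adjusted p of 0.0681 for Egln1. Egln2, a prolyl hydroxylase not known as hypoxia-induced, read 7.53, 7.60 and 7.80 and then 7.34, 7.38 and 7.21. It fell by 0.33 ± 0.11 (SE, limma adjusted p = 0.0371). That call was lost without undifferentiated replicate 2 (adjusted p = 0.065) or 3 (0.156) and without differentiated replicate 1 (0.0644) or 3 (0.126). The fall of Egln3 exceeded that of Egln1 by 2.80 and that of Egln2 by 3.28 (exact permutation p = 0.1 each, pairs chosen after the values were seen).

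The genes that act after or beside prolyl hydroxylation did not pass. Vhl, which recognises the hydroxylated alpha subunit, read 7.09, 6.98 and 6.98 and then 7.11, 7.20 and 7.20. The groups lay side by side without overlap, and the difference of 0.15 (interval -0.06 to 0.37) had a limma adjusted p of 0.286. Hif1an, which hydroxylates the asparagine, read 7.53, 7.28 and 7.50 and then 7.23, 7.27 and 7.37, a difference of -0.15 (interval -0.38 to 0.08, adjusted p = 0.344).

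**Figure D2:**
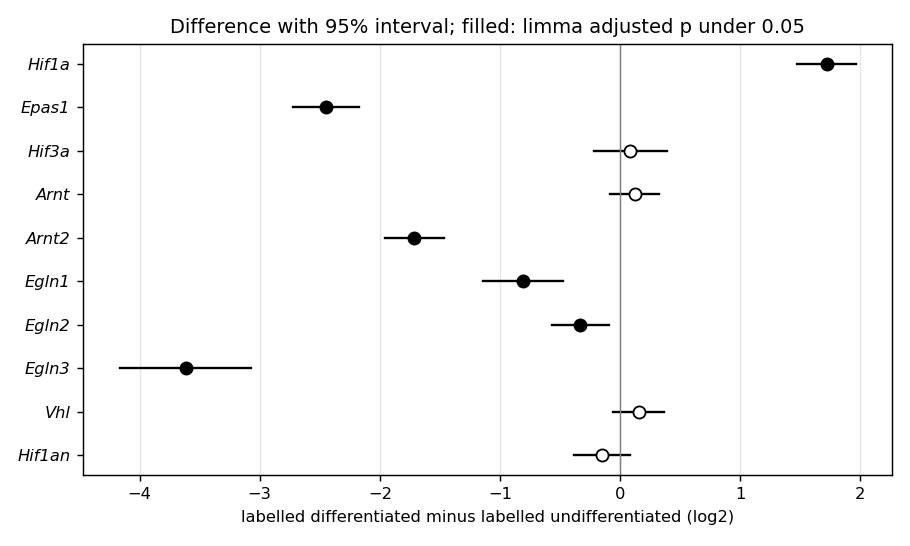
Difference of each gene between the arrays labelled differentiated and undifferentiated (horizontal axis, log2, n = 3 each) with its 95% interval from the limma fit over all genes; filled points passed an adjusted p of 0.05. Differences run from -3.62 for Egln3 to 1.72 for Hif1a, and the intervals of Hif3a, Arnt, Vhl and Hif1an include 0.

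The cell type markers that moved with these genes are given for comparison of sizes. Among glomus cell markers Gata3 fell by 0.70, and the others fell by 1.75 (Syt1) to 4.65 (Dbh). The falls of Epas1 and Egln3 lay between those of Syt1 and Dbh, and those of Egln1 and Arnt2 lay between Gata3 and Syt1, where no other marker of the list was. Among mesenchymal and fibroblast markers Prrx1 rose by 1.77, a little more than Hif1a, and the others rose by 0.84 (Fn1) to 1.46 (Pdgfra), less than Hif1a. The part of cell composition in the members' changes was not tested. Epas1 is also known from endothelium, and the 9 measured endothelial markers did not move together. Cldn5, of tight junctions, fell by 2.31 from a mean of 8.14, while Eng rose by 0.80 from 8.79 and Erg rose by 0.96 from 5.48. The other 6 did not pass, and of these Pecam1, Cdh5, Kdr and Emcn had group means between 3.44 and 4.15, beside array lower quartiles of 3.37 to 3.52, and Tek and Tie1 between 4.90 and 5.25. No measured marker of any of the 6 lists lay under the lower quartile on all 6 arrays.

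The genes with the closest pattern over the 6 arrays, by Euclidean distance between values centred on each gene's mean, differed for the 2 alpha subunits. For Hif1a these were Prrx1 (distance 0.21), a mesenchymal transcription factor also on the marker list, Sertad4 (0.24) and Bicc1 (0.24). They rose by 1.77, 1.57 and 1.65. For Epas1 they were the tetraspanin Tspan33 (0.17), the receptor Gpr22 (0.26) and Ptprn (0.27), a protein of dense-core granules, with differences of -2.57, -2.54 and -2.42. Tspan33 shared with Epas1 an SD of 0.03 in the arrays labelled undifferentiated. Tspan33, Gpr22 and Ptprn, like Epas1, read highest on array 1 among those labelled differentiated. All were chosen for their closeness over the same 6 arrays, so this likeness follows from the choice and is no independent result.

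**Figure D3:**
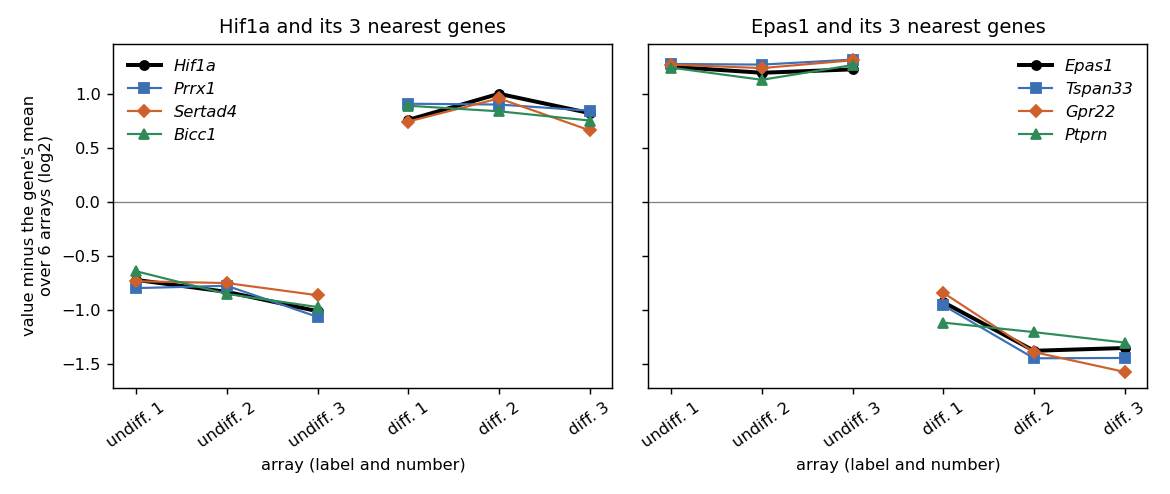
Values of Hif1a (left) and Epas1 (right) and of the 3 genes nearest to each, centred on each gene's mean over the 6 arrays (vertical axis, log2); lines join arrays of the same label and carry no order. Each set of 4 curves keeps the same direction, up for Hif1a and down for Epas1, at distances of 0.17 to 0.27. The genes were chosen for their closeness on these arrays, so the shared direction follows from the choice.

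The rest of the pathway was followed in 10 lists with 120 measured genes. Among 7 partners of the Vhl ligase, 0 rose, 2 fell and 5 did not pass, with a median of 0.04. The 2 were the deubiquitinases Usp20 (-0.82) and Usp33 (-0.53), while the scaffold Cul2 differed by -0.01 and the elongins Elob and Eloc by 0.13 and 0.04. The median turned to -0.06 without undifferentiated replicate 2. The share called, 28.6%, was close to the 29.5% of all genes. With quantile normalization 2 genes of this list were called higher and 2 lower.

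Other proteins that set alpha subunit stability were divided: of 12, 3 rose, 3 fell and 6 did not pass (median -0.04). The share called was 50%, beside 29.5% of all genes. The scaffold Rack1 rose by 0.58 and Ing4 by 0.41, while the lectin Os9 (-1.03) and the ligase Stub1 (-0.39) fell. Rack1 lost its call without moderation of the variance (adjusted p = 0.0943). Ing4 lost its call without undifferentiated replicate 1 or 2 or differentiated replicate 1 or 2 (limma adjusted p 0.061 to 0.101). Centring on array medians (limma adjusted p = 0.0533), the test without moderation (0.111) and the threshold of 0.01 also lost the call of Ing4. Stub1 lost its call without replicate 1 or 3 of either label (limma adjusted p 0.0617 to 0.141). The same held with eBayes without trend (adjusted p = 0.0634), without moderation (0.158) and at the threshold of 0.01. Of this list 2 genes were called without undifferentiated replicate 1, and 3 without undifferentiated replicate 3 or differentiated replicate 1 or 2. With eBayes without trend 3 were called, at the threshold of 0.01 there were 2, and without moderation 1. Over all 14506 genes these settings called 4060, 2963 and 2740, so the share of 50% depended on the setting. The chaperone Hsp90aa1 differed by -0.15 and did not pass. In the mTOR and translation list, which governs how much alpha subunit is made, 2 of 9 genes rose, 1 fell and 6 did not pass (median -0.17). Its share called, 33.3%, was close to that of all genes. Eif4ebp1, an inhibitor of cap-dependent translation, rose by 0.56 and the kinase Rps6kb1 by 0.41, the former not called without moderation (adjusted p = 0.052), and Tsc1 fell by 0.40. The call of Tsc1 was lost when undifferentiated replicate 1 or 3 or differentiated replicate 2 was left out (limma adjusted p 0.0563 to 0.1). It was also lost without moderation (adjusted p = 0.0698) and at the threshold of 0.01.

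Among 14 coactivators and competitors, 1 rose, 4 fell and 9 did not pass (median -0.14, 35.7% called, beside 29.5% of all genes). The kinase Cdk8, of the Mediator complex, fell by 0.75 and the coactivator Ncoa2 fell by 0.94, and the deacetylase Hdac7 rose by 0.60. The coactivators Ep300 and Crebbp, whose binding Hif1an controls, differed by -0.14 and 0.02 and did not pass. Of 10 other factors of the bHLH-PAS family, some of which also pair with Arnt, 4 rose, 1 fell and 5 did not pass (median 0.11). Here the share called was 50%, beside 29.5% of all genes. The aryl hydrocarbon receptor Ahr rose by 2.69, from 5.29 to 7.98 in the mean, and the clock factor Bmal2 by 0.88, while Clock fell by 0.46. Without moderation Bmal2 lost its call (adjusted p = 0.0688). That test called 3 genes of this list, 2 higher and 1 lower, and 2740 of all 14506 genes.

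The Egln enzymes and Hif1an use 2-oxoglutarate and are inhibited by succinate and fumarate. Of 10 genes of this metabolism, 1 rose, 1 fell and 8 did not pass (median -0.09, 20% called, beside 29.5% of all genes). Idh2, a mitochondrial source of 2-oxoglutarate, rose by 1.10, and D2hgdh fell by 0.40. The call of D2hgdh was lost without replicate 1 or 3 of either label (limma adjusted p 0.0524 to 0.143), which left 1 gene called. It was also lost with eBayes without trend (adjusted p = 0.0514), without moderation (0.128) and at the threshold of 0.01. The 4 succinate dehydrogenase subunits Sdha, Sdhb, Sdhc and Sdhd differed by -0.14 to 0.18 and did not pass. Among 15 other dioxygenases of the same chemistry, 1 rose, 4 fell and 10 did not pass (median -0.11), and 3 were called without undifferentiated replicate 3. With all arrays the share called was 33.3%, close to that of all genes. P4ha3, a collagen prolyl hydroxylase, rose by 1.81, and the histone demethylases Kdm4c (-0.53) and Kdm4b (-0.49) fell.

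Target genes were grouped by the alpha subunit they are known to follow. Of 13 targets that prefer Hif1a, whose own transcript rose, 1 rose, 8 fell and 4 did not pass (median -0.65, 69.2% called). The share called over all genes was 29.5%, with 14.7% higher and 14.9% lower. Bnip3, of mitochondrial autophagy, fell by 2.11, the glucose transporter Slc2a1 fell by 1.18, and the hexokinase Hk2 rose by 0.65. Without moderation of the variance 4 were called, each of them lower, where 2740 of all 14506 genes were called, 1547 of them lower. Hk2, the only gene of this list called higher by limma on the values as deposited, lost its call there (adjusted p = 0.125). With quantile normalization 2 were called higher and 7 lower. Of 9 targets that prefer Epas1, whose transcript fell, 3 rose, 2 fell and 4 did not pass (median 0.32, 55.6% called). The cytochrome oxidase subunit Cox4i2 fell by 3.50 and the iron transporter Slc11a2 fell by 2.29, whereas the iron reductase Cybrd1 rose by 1.06 and the growth factor Tgfa by 0.88. The value of Cybrd1 depended on the probe set, and the mean of its probe sets gave 0.50 with the call kept. Epo, the textbook target, had group means of 3.43 and 3.75, near the lower quartiles of the arrays, and did not pass. Its difference of 0.32 was itself the median of this list. Cox8b (3.49 and 3.53) and Pou5f1 (3.34 and 3.46) were also near those quartiles and did not pass. With dim genes left out 6 genes of the list remained, 4 called higher and 2 lower, with a median of 0.70. That setting called 4286 of 10160 genes.

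Of 21 targets of both factors 3 rose, 13 fell and 5 did not pass (median -0.68, 76.2% called, beside 29.5% of all genes). The glycogen branching enzyme Gbe1 fell by 2.74 and adrenomedullin, the peptide encoded by Adm, fell by 3.88. The collagen-modifying enzymes Lox and Plod2 rose by 1.71 and 0.85. The 13 that fell were thus lower in the arrays labelled as grown at 3% oxygen. This direction too rests on the labels, and an exchange of labels was not tested. These lists were drawn up with earlier results of the same arrays known, so their direction is no independent evidence.

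**Figure D4:**
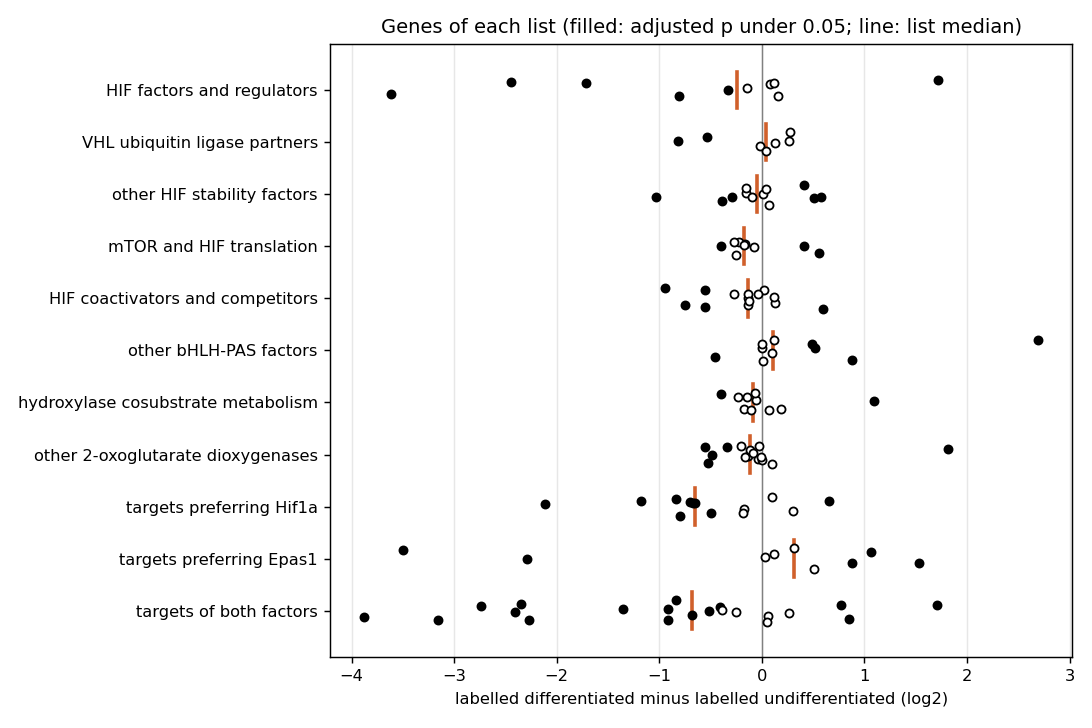
Difference of each measured gene (horizontal axis, log2, labelled differentiated minus labelled undifferentiated) in the 10 members and the 10 pathway lists; filled points passed a limma adjusted p of 0.05 and the orange line is the list's median. Medians run from -0.68 for targets of both factors to 0.32 for targets preferring Epas1. The latter is the difference of Epo, a dim gene that did not pass.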

How the data were processed

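Per the labels' protocols, biotin-labelled cRNA was made from 100 ng of total RNA. The authors deposited a table of 29214 probe sets by 6 arrays on a log2 scale (the base was inferred from the range). For background correction, normalization and software: not given in the sources used here. No detection calls were used, so the distance of dim values from background is unknown. The 6 arrays limit the precision.

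Gene names came from the platform annotation: 15310 had 1 gene symbol, 323 several and the rest are unnamed here. By gene ID, 15279 matched RefSeq's table for GRCr8. The probe set with the highest mean stood for each gene. Values were fitted as deposited with limma 3.58.1 in R 4.3.3 (lmFit, eBayes with trend, two-sided, Benjamini-Hochberg over all genes at 0.05), tested on simulated data. Figures used matplotlib 3.10.9. The members and lists were chosen with earlier results of these data known. All members were named, and from each list the 2 genes with the smallest p in each direction past the threshold. Cul2, Elob, Eloc, Hsp90aa1, Ep300, Crebbp, the succinate dehydrogenase subunits and the cell type markers given singly were added after their values were seen. So were Epo, Cox8b and Pou5f1.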

Additional observations from a re-analysis of the deposited data

How the results depend on the processing

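Over 17 alternative settings (quantile normalization, centring on array medians, a block for the replicate number, dim genes left out, other choices of probe set and variance model, a threshold of 0.01, and each array left out), Hif1a, Epas1, Arnt2 and Egln3 kept their direction and call, and Hif3a, Arnt, Vhl and Hif1an did not pass in any setting that fitted them. Hif3a was below the 40th percentile and could not be fitted where dim genes were left out. Egln2, at -0.33, lost its call with eBayes without trend (adjusted p = 0.0666), without moderation (0.0965) and at the threshold of 0.01, and ran from -0.39 to -0.25 when each array was left out. Egln1, at -0.81, lost its call without moderation. That test called 2740 of all genes in place of 4286. The change of Hif1a minus that of Epas1 ran from 4.02 to 4.36 over its settings. Of 170 recomputed list counts, 150 stayed within 1.5 times.

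The replicate numbers were not taken as a paired design, since the labels do not say that a number marks a shared culture, animal or day. Deviations of same-numbered arrays correlated at 0.09, 0.07 and -0.01, and those of different-numbered arrays at -0.10 to 0.02. With so few arrays these values cannot decide whether the arrays were paired. With the replicate block 4430 genes were called and no member's call changed.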
